A study of Saccharomyces cerevisiae with 22 samples.

Results

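The state of wild-type budding yeast after 60 min at 37 °C was described from 2 of the 22 two-colour microarrays of a temperature-shift series, together with every gene that the arrays name. The arrays are those titled for wild-type cells at 37 °C and 60 min, written here as array a and array b, and 5315 genes were measured on each. The cells were Saccharomyces cerevisiae BY4742, a haploid laboratory strain of mating type alpha that carries deletions in HIS3, LEU2, LYS2 and URA3, and every sample compared here shared that genotype. A culture grown at 30 °C was spun down, taken up in medium at 37 °C and sampled after 5, 15, 30, 45 and 60 min. Each sample was hybridised against 1 common reference RNA, from the same strain grown untreated at 30 °C in a plate reader, with the 60 min RNA in Cy3 on array a and in Cy5 on array b. Every value below is a log2 ratio of sample over that reference unless a fold is named, so 1 unit is a doubling and negative values are lower than the reference. The reference stands in for an untreated control, its own spread is left out of the test, and the effect of heat cannot be told apart from that of spinning down, of new medium or of the different vessel, since the untreated culture of the heat series was not analysed here. A second culture, grown at 37 °C and sampled at 0 min of a cold shock, called the 37 °C culture here, served as a point of longer growth at the same temperature, also on 2 arrays.

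Yeast meets a rise in temperature with a pair of overlapping programmes. The heat shock factor Hsf1 drives genes for chaperones, proteins that hold, refold or disaggregate damaged proteins, while Msn2 and Msn4, repressed by protein kinase A during growth on glucose, drive a broad set of genes for trehalose and glycogen metabolism, oxidant removal and small hydrophilic stress proteins. At mildly high temperatures the first wave is known to be transient, with transcripts for ribosome production dropping early and recovering as growth resumes.

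The arrays of 60 min gave closely similar values in opposite dye orientations. Across the named genes the log2 ratios of array a and array b correlated with Pearson's r = 0.962, taken over genes and so not over independent replicates, and the difference between the arrays had an SD of 0.120 and a median of -0.0043. On array a 97.0% and on array b 97.5% of the gene probes were above background in both channels. The deposited ratios of both arrays ran in the direction of the scanner channels, whereas 3 of the 22 arrays of the series, none of them from 60 min, had the opposite sign. The sources do not settle whether a and b are separate cultures or a repeat of the same RNA with the dyes exchanged, so the p-values measure only the spread between arrays, which may be technical. The genes that mark mating type alpha, MF(ALPHA)1, MF(ALPHA)2, STE3 and SAG1, were above background in sample and reference on both arrays. Spots for the a-specific genes MFA1, MFA2, STE2, STE6, BAR1, AGA2 and ASG7 also passed that lenient limit. So did those for HIS3, LEU2 and LYS2, in which the strain carries deletions, while URA3 failed it only in the reference on array a. Sample intensities ran from 51.4 for LEU2 on array a to 216 for STE2 and 314 for HIS3 on array b. LYS2 measured 118 and 170 in the sample. The limit therefore does not separate expressed from unexpressed genes.

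After 60 min at 37 °C, 198 genes were called higher and 75 were called lower than the reference, at an adjusted p below 0.05 in limma's moderated test (Benjamini-Hochberg over the named probes) and a change of more than 1.7-fold, the rule by which a gene is called in every comparison here. That is 3.73% of the 5315 genes in the higher and 1.41% in the lower direction, or 5.14% in either. Counts of called members in the lists below stand beside these shares. Each ratio is one of RNA pools, in which fewer cells making a transcript and less of it per cell cannot be told apart. By adjusted p alone 3769 genes passed, 70.9% of all, most of them at small ratios. Counts by unadjusted p against the reference, given for lists below, stand beside a share of all genes at least that large. The median gene stood at 0.0056, the 5th percentile at -0.47 and the 95th at 0.63. All 198 higher and all 75 lower genes had the same sign on both arrays, and 235 of the 273 were past the fold limit on each array by itself. The genes were called from these same 2 arrays, so both counts are a description and no separate check of the calls. More than 4-fold changes were called for 22 higher and 6 lower genes. When arrays were only centred on their median, with no intensity curve, the split was 173 higher and 258 lower, so that 40.1% of calls were higher against 72.5% in the main setting. A curve through the external control spots raised the median of all genes by about 0.20, to 0.2005, and gave 322 higher and 85 lower genes. That curve rests on 14 control probes, the brightest at a mean log2 intensity of 10.79. Spots outside the intensity range of the controls, such as those of the brightest genes, were corrected by the value at its end.

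**Figure D1:**
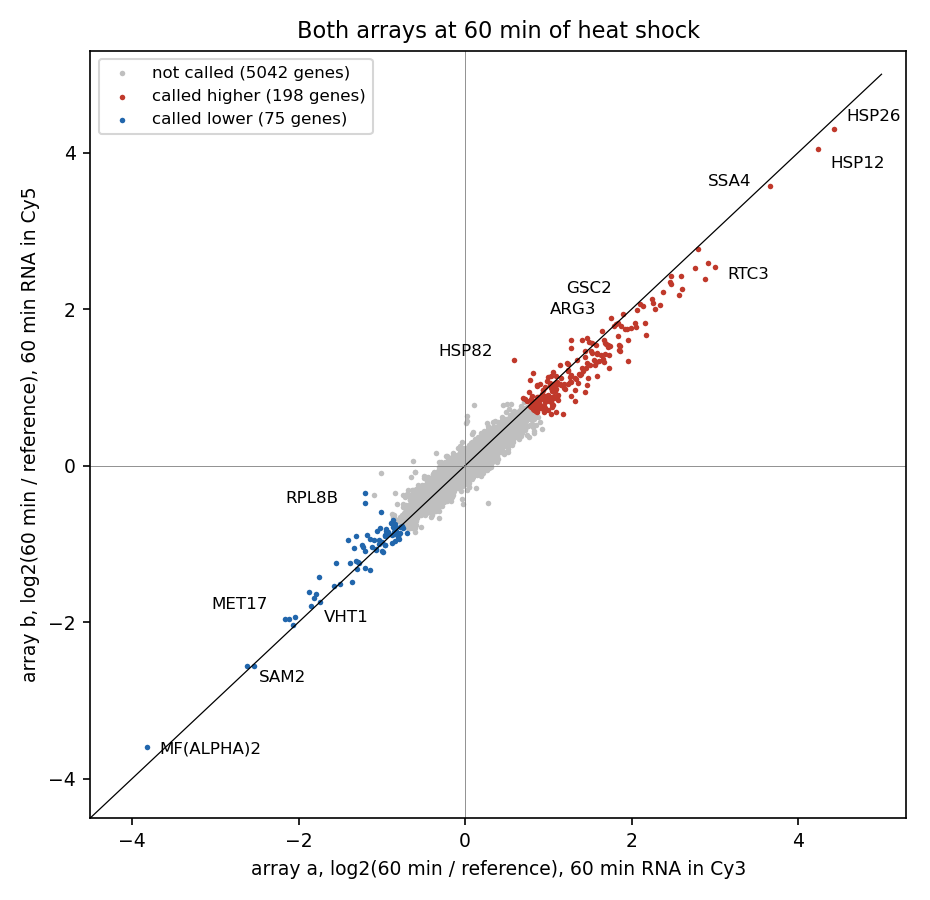
Log2 ratios of 60 min of heat shock over the reference on array a (x axis, sample in Cy3) and array b (y axis, sample in Cy5), 1 point per gene, with the 198 genes called higher in red, the 75 called lower in blue, the rest in grey and the line of equal values in black. HSP26, HSP12 and SSA4 lie at the upper end and MF(ALPHA)2 at the lower end on both arrays, and HSP82 and RPL8B are among the called genes on which the arrays differ.

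The largest rises belonged to chaperones and small stress proteins. HSP26, a small heat shock protein that holds unfolded proteins, measured 4.43 on array a and 4.30 on array b, a fitted 20.6-fold rise (log2 4.36 ± 0.061 SE, limma adjusted p = 3.5e-16). The membrane-associated stress protein HSP12 followed at 4.24 and 4.05 (17.6-fold), and SSA4, the stress-inducible cytosolic Hsp70, at 3.67 and 3.57 (12.3-fold). These were the 3 genes called at more than 8-fold higher, and 2 of them, HSP26 and HSP12, were past 16-fold. HSP42, the other small heat shock protein, stood at 2.79 and 2.77. HSP104, the cytosolic disaggregase, measured 2.92 and 2.59, and its mitochondrial counterpart HSP78 measured 2.76 and 2.52. Both measured small heat shock proteins and both disaggregases were called higher, with list medians of 3.57 and 2.70 against 0.0056 for all genes.

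Within the larger chaperone families some members were called and others were not. Of 10 measured genes of the Hsp70 and Hsp110 family, 3 were called higher, SSA4, the Hsp110 nucleotide exchange factor SSE2 (2.24 and 2.13) and SSA1 (1.63 and 1.42), a constitutive cytosolic Hsp70 with 2 spots above the saturation limit on these arrays and no call with the curve through control spots (0.68) or after median centring only (0.33). The ribosome-bound Hsp70 genes SSB1 and SSB2 stood at -0.26 and -0.35, and the Hsp110 gene SSE1 at 0.50, and none of these was called. After median centring only, and likewise with the curve through control spots, 2 of the 10 genes were called higher and 2 lower. Among 11 genes of the Hsp90 machine, 6 were called: the co-chaperones STI1 (1.95 and 1.74), AHA1 (1.75 and 1.88), CPR6 (1.67 and 1.60) and HCH1 (1.23 and 1.30), and the Hsp90 genes HSC82 (1.23 and 1.21) and HSP82 (0.58 and 1.35). HSC82 was not called with the curve through control spots (0.65) or after median centring only (0.30). The pair HSC82 and HSP82 is nearly identical in sequence and probes may read both, and the arrays differed more for HSP82 (SE 0.198) than for any other of the 6. CDC37, which brings kinases to Hsp90, stood at 0.22 and was not called. Of 12 J-domain proteins, which stimulate Hsp70, only SIS1 was called (1.27 and 1.50), with the next, YDJ1, at 0.59. In mitochondria the folding chamber HSP60 (1.82 and 1.80), its lid HSP10 (1.55 and 1.35) and the J-protein MDJ1 (1.15 and 1.12) were called among 11 chaperone genes, whereas the matrix Hsp70 SSC1 stood at 0.55. In the endoplasmic reticulum KAR2, the lumenal Hsp70 (1.74 and 1.52), and the oxidase ERO1 (1.52 and 1.43) were called among 15 genes, and protein disulphide isomerase PDI1 at 0.35 was not.

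The genes for the regulators themselves were not called. Of 12 genes for stress transcription factors, none passed both limits of the limma test, while 9 had an unadjusted p below 0.05 at small ratios. HSF1 measured 0.34 and 0.30, MSN2 0.11 and 0.23, and MSN4 0.28 and 0.21. HAC1, which encodes the factor of the unfolded protein response, stood at 0.45 and RPN4, which drives proteasome genes, at 0.10. Of 16 genes of the Ras and protein kinase A pathway, 1 was called, a share near the 5.14% of all genes. This was the Ras inhibitor IRA2 at 0.77 (0.85 and 0.69). It fell below the fold limit without array a (0.69) and lost its call with 1 intensity curve per array (0.73) and after median centring only (0.48). No gene was called by the same limma test among 34 proteasome subunits (median 0.026, or -0.21 after median centring only), 22 genes of ubiquitin and its conjugating enzymes and 27 autophagy genes. In these lists 22, 15 and 22 genes had an unadjusted p below 0.05 at ratios from -0.46 to 0.72, where 70.9% of all genes passed even the adjusted limit. Of 10 vacuolar proteases and inhibitors 5 were called higher, among them the aminopeptidase APE1 (1.05 and 1.20), the protease PRB1 (1.04 and 1.00) and its inhibitor PBI2 (1.43 and 1.39).

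The Msn2/Msn4 group was still up nearly as a whole. Of 35 general stress genes, 31 were called higher and none lower, with a list median of 1.91, 1.79 with the curve through control spots and 1.45 after median centring only. This list was drawn from textbook targets with results of these data known, and several of its members also stand in the other lists. RTC3, a gene of RNA metabolism, measured 3.00 and 2.54, SPI1, a cell wall protein of stationary phase, 2.59 and 2.43, and the inhibitor TFS1 of carboxypeptidase Y 2.43 as the fit of both arrays. MSC1, whose name comes from a screen on meiotic recombination, measured 2.57 and 2.18. DDR2 and DDR48, named for DNA damage response, stood at 2.17 and 2.09, and the cytosolic catalase CTT1 at 1.92 (2.17 and 1.67). The 4 members that were not called were GLC3, the glycogen branching enzyme, at 0.66, UGA2 at 0.32, SIP18 at 0.23 and the carbonic anhydrase NCE103 at -0.17.

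Storage carbohydrate and sugar phosphate genes made up a second large block. Of 7 trehalose genes, 6 were called higher, both for making the sugar and for breaking it down. TSL1, a regulatory subunit of trehalose synthase, measured 2.47 and 2.42 (5.45-fold), the phosphatase TPS2 1.51 and 1.46 and the synthase TPS1 1.23 and 1.31. The trehalases NTH1, ATH1 and NTH2 stood at 1.39, 1.27 and 1.07, and TPS3 at 0.64 was not called. In glycogen metabolism 3 of 11 genes were called, the phosphorylase GPH1 (2.16 and 1.83), the synthase GSY2 (1.52 and 1.56) and the debranching enzyme GDB1 (1.14 and 1.04), while the second synthase gene GSY1 was at 0.0038. HXK1 (2.46 and 2.35), GLK1 (1.65 and 1.73), PGM2 (2.47 and 2.32) and UGP1 (1.24 and 1.22), which phosphorylate glucose and pass it on to trehalose and glycogen, were all called, whereas HXK2, the main hexokinase on glucose, stood at -0.40. HXT5 (1.66 and 1.32) was the 1 called gene of 18 hexose transporters and sensors, a share near the 5.14% of all genes. With 1 intensity curve per array 2 of the 18 were called higher and 1 lower.

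In the pentose phosphate pathway the minor isoforms NQM1 (2.88 and 2.39), SOL4 (2.34 and 2.05), GND2 (1.86 and 1.47) and TKL2 (1.32 and 0.83) were called higher, and RKI1, the ribose-phosphate isomerase, was called lower (-0.80 and -0.93, or -0.70 and not called with the curve through control spots). The aldehyde dehydrogenases ALD4 (2.38 and 2.22), ALD3 (1.95 and 1.34) and ALD2 (0.90 and 0.75) were called among 5. Of the glycerol genes GPD1, GPP2, GCY1 and DAK1 were called, at 1.34, 1.27, 1.47 and 1.03 (GPP2 not after median centring only, at 0.39, or with the curve through control spots, at 0.74), while the second isoforms GPD2 and GPP1 stood at -0.35 and 0.10. Glycolysis as a list had 3 of 23 genes called, TDH1 (0.95), TDH3 (0.85) and PFK26 (0.78). The spots of TDH1 and TDH3 were all above the saturation limit, these isoforms are close in sequence, and their values turned to -0.31 and -0.29 after median centring only, so no direction is given for them. The list's median of 0.26 also changed sign, to -0.34, in that setting and to -0.033 with the curve through control spots. Against oxidants, CTT1 was called higher among 10 enzymes, YHB1, a nitric oxide oxidoreductase, and GPX2, a glutathione peroxidase, were called lower (-1.75 and -1.75, and -1.14 and -1.34), and the peroxiredoxin TSA2 and the glutaredoxin GRX1 were called higher at 1.56 and 1.35.

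**Figure D2:**
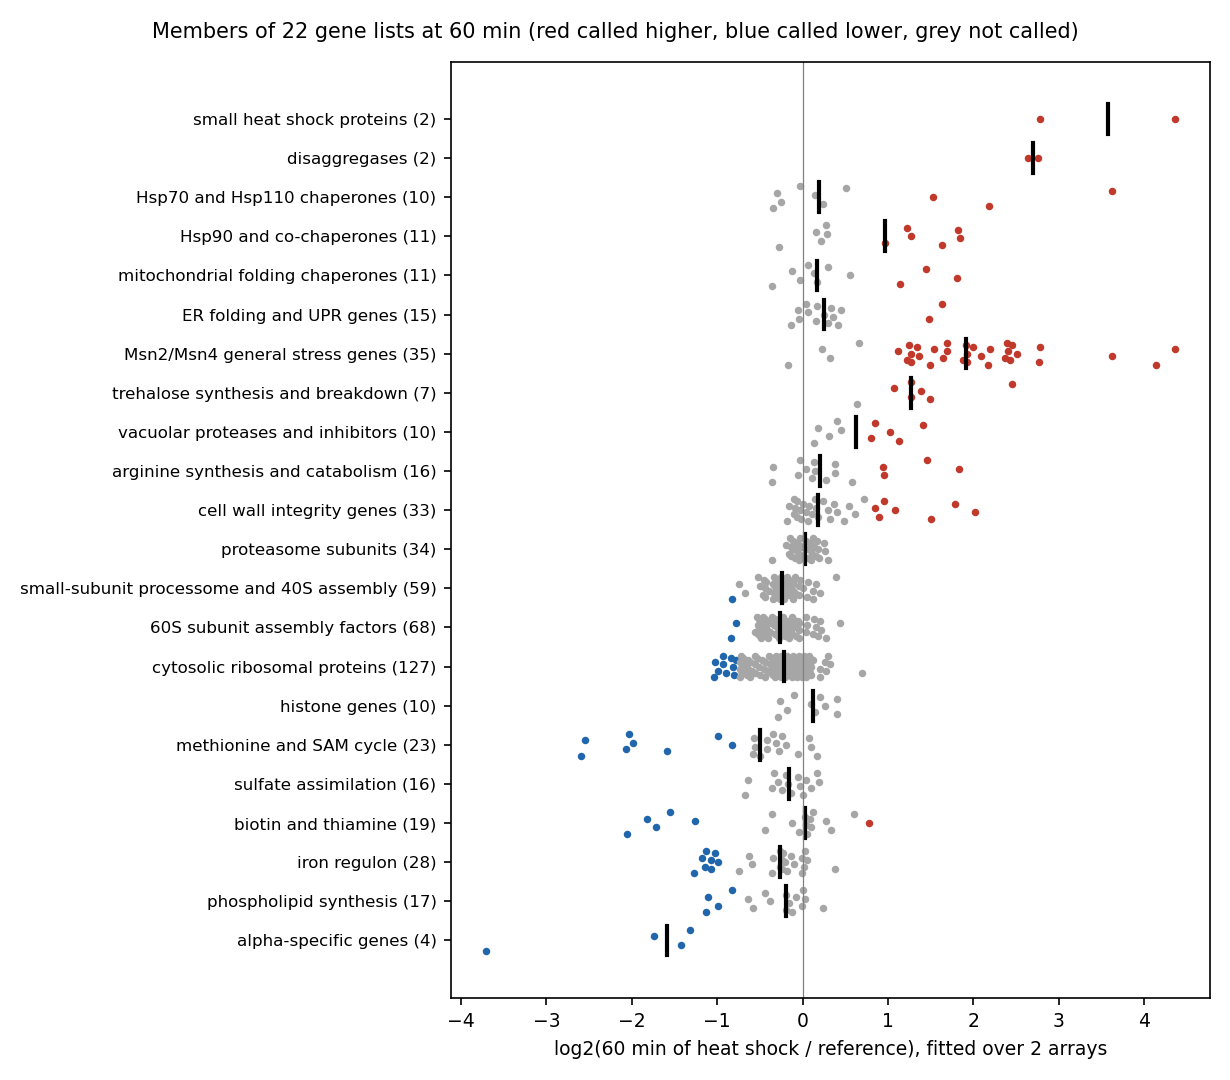
Log2 ratio of 60 min of heat shock over the reference, fitted over the 2 arrays (x axis), for each measured gene of 22 gene lists (y axis, number of genes in brackets), with called genes in red (higher) or blue (lower), the others in grey and a black bar at each list's median. The Msn2/Msn4 list, with 31 of 35 genes called higher, lies far to the right, and proteasome subunits, with none called, lie around 0.

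A smaller set of genes was high at 60 min without having been high at 15 min. GSC2, a subunit of the stress form of glucan synthase that builds the cell wall, measured -0.15 and -0.21 at 15 min, 1.54 and 1.49 at 45 min and 2.06 and 1.99 at 60 min. Its difference between 60 and 15 min was 2.20 ± 0.051 (SE, limma adjusted p = 1.5e-13). Genes of arginine synthesis also rose after 15 min. ARG3, the carbamoyltransferase, measured -0.46 and -0.33 at 15 min and 1.87 and 1.78 at 60 min, a difference of 2.22 ± 0.059 (SE, limma adjusted p = 4.2e-13). ARG1, the synthetase of argininosuccinate, went from -1.29 on both arrays to 0.94 and 0.96, CPA1 from -0.37 and -0.44 to 1.44 and 1.47, and ARG8 from -0.76 and -0.72 to 1.02 and 0.87. These were the 4 called genes of 16 on arginine, a count of 2 after median centring only, and the list's median was 0.21. ARG4, ARG2 and the arginase CAR1 stood at -0.35, 0.12 and -0.03. The polyamine exporter TPO3 measured 0.96 and 1.01 at 60 min, against -0.52 at 15 min, and was not called against the reference after median centring only (0.62). SNZ3, of vitamin B6 and thiamine metabolism, stood at 0.77 (0.72 and not called without array a), against -0.15 at 15 min.

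Other genes of the cell wall and membrane were raised at 60 min but were above the reference at 15 min already. Of 33 cell wall genes, 7 were called higher than the reference at 60 min, and 3 after median centring only. Besides GSC2 these were SED1, CWP1, HSP150, CWP2, PST1 and SLT2, the kinase of the cell wall integrity pathway (1.04 and 0.75). CWP1, HSP150 and PST1 were lower at 60 min (1.50, 1.09 and 0.85) than at 15 min (2.90, 1.87 and 1.80) and were called so, and SLT2 went from 1.47 to 0.89 without a call. With the curve through control spots the differences of CWP1, HSP150 and PST1 were not called (-0.71, -0.12 and -0.48). That of HSP150 was also not called with 1 curve per array (-0.69) or after median centring only (-0.66). The level of HSP150 at 60 min was not called with the curve through control spots (0.64) or after median centring only (0.29), nor was that of PST1 after median centring only (0.68). CWP2 stood at 0.51 at 15 min and 0.95 at 60 min, a level that turned to -0.082 after median centring only. SED1 stood at 1.79 on both arrays of 60 min and at 0.75 at 15 min, but its difference from 15 min was 1.04 in the main setting and -0.61 with 1 curve per array, so no direction is given for it, and its level at 60 min was 0.65 and not called after median centring only. Between 15 and 60 min 4 of the 33 were called higher and 4 lower, or 10 and 0 with the curve through control spots. The copper metallothionein gene CUP1-2, whose tandem copies the probe cannot tell apart, measured 1.96 and 1.61 at 60 min, after 0.80 at 15 min, and the membrane protein YRO2 2.10 and 2.06, after 1.25. These 2 differences from 15 min were called in the main setting but not with 1 curve per array (0.76 and 0.66).

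Genes for methionine and S-adenosylmethionine (SAM), the cell's methyl donor, fell furthest after the mating pheromone gene. SAM1 and SAM2, which encode the synthetases and are close enough in sequence for their probes to read both, measured -2.54 and -2.56, and -2.62 and -2.56, that is 5.84-fold and 6.02-fold lower than the reference. The SAM permease SAM3 stood at -2.16 and -1.97, the methionine synthase MET6 at -2.11 and -1.96, MET17, the sulfhydrylase that makes homocysteine, at -2.05 and -1.94, and the methionine permease MUP1 at -1.75 and -1.42. With the methyltransferases MHT1 (-0.82, or -0.75 and not called after median centring only) and OPI3 (-0.99), 8 of 23 genes of the methionine and SAM cycle were called lower and none higher, and the list's median was -0.50. None of 16 genes of sulfate assimilation was called by limma, where 1.41% of all genes were called lower, and 12 had an unadjusted p below 0.05. MET14 (-0.68) and MET10 (-0.64) were the lowest, and the permease genes SUL1 and SUL2 stood at 0.04 and 0.10. The transcription factor genes MET4, MET28, MET31 and MET32 lay between -0.29 for MET28 and 0.0020 for MET31.

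The biotin genes fell together. BIO3 (-2.06 and -2.04), BIO5 (-1.79 and -1.64), BIO2 (-1.58 and -1.54) and BIO4 (-1.28 and -1.25), which import intermediates and carry out the last steps to biotin, and VHT1 (-1.85 and -1.79), the importer of biotin itself, were called lower. BIO3, BIO4 and BIO5 have consecutive locus numbers on the same chromosome, from YNR058W to YNR056C. The enzyme of BIO3 is known to take its amino group from SAM. The rest of the list of 19 genes, on thiamine and vitamin B6, stayed between -0.43 and 0.77, so the list's median of 0.03 hides the 5 falls, and this median was -0.11 after median centring only. Several falls concerned iron. Of 28 iron genes, 8 were called lower and none higher: the siderophore transporters SIT1 (-1.32 and -1.22), ENB1 (-1.24 and -1.02) and ARN2 (-1.02 fitted), the cell wall mannoproteins FIT3 (-1.20 and -1.08) and FIT2 (-1.07 and -1.07), the ferroxidase FET3 (-1.41 and -0.95), the reductase FRE1 (-0.96 and -1.02) and TIS11 (-1.12 and -1.04), which destabilises mRNAs of iron-using proteins. All these are targets of the iron-sensing factors Aft1 and Aft2, whose own genes AFT1 and AFT2 stood at -0.01 and 0.38. With the curve through control spots ARN2 was not called (-0.75), and the median of the iron list was -0.087 against -0.27 in the main setting.

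The alpha-specific genes were lowered as well. MF(ALPHA)2, a gene for the alpha-factor pheromone, measured -3.82 and -3.60, a 13.1-fold lower level and the largest fall of any named gene. SAG1, the alpha-agglutinin, stood at -1.88 and -1.61, the a-factor receptor STE3 at -1.36 and -1.49, and MF(ALPHA)1, the major alpha-factor gene, at -1.30 and -1.33, so that all 4 listed genes were called lower. None of the 7 a-specific genes was called by limma (median 0.018), with 6 at an unadjusted p below 0.05. Of 26 other genes of mating and pheromone response, FAR1, which arrests the cell cycle in response to pheromone, was called lower (-0.80 and -0.91), and it missed the fold limit with the curve through control spots (-0.72).

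**Figure D3:**
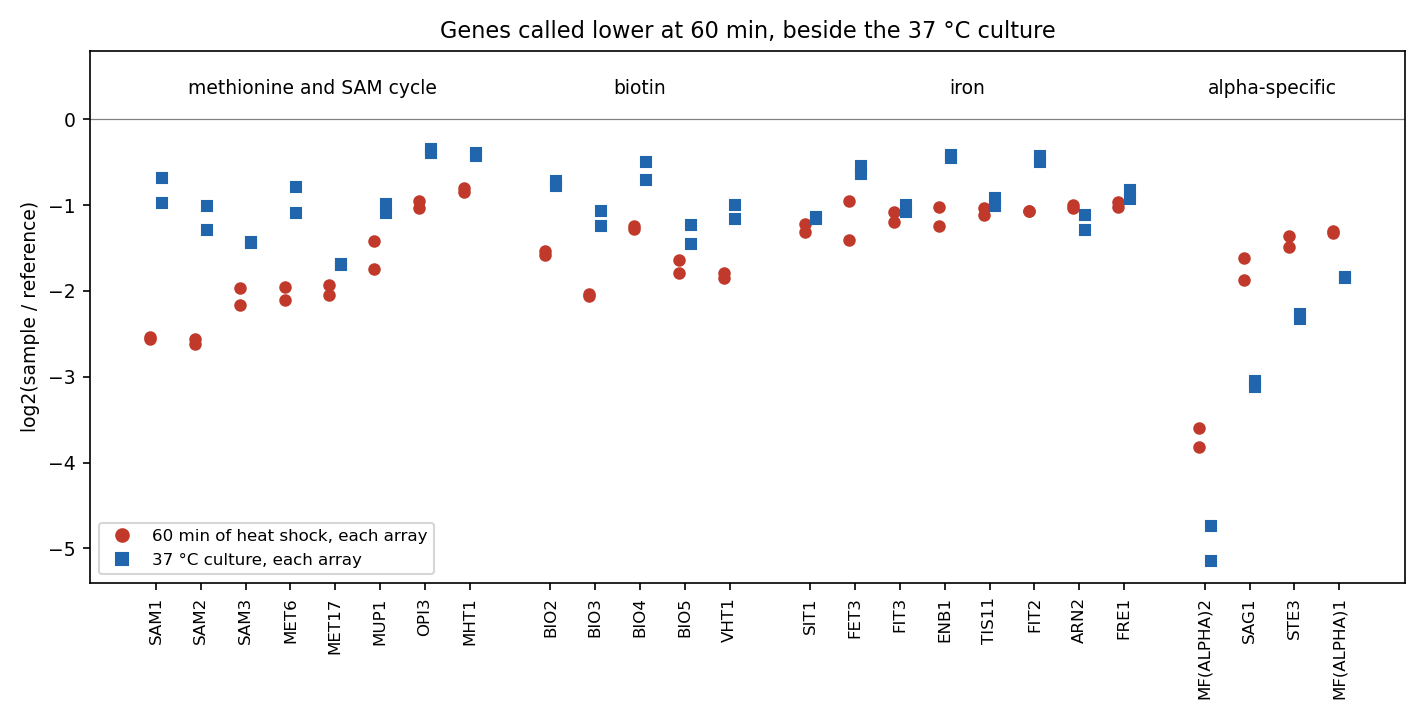
Log2 ratio over the common reference (y axis) of called genes of methionine and SAM, biotin, iron and alpha-specific function at 60 min of heat shock (red circles, 2 arrays each) and in the 37 °C culture (blue squares, 2 arrays each). SAM1 and SAM2 lie near -2.6 at 60 min and near -1 in the 37 °C culture, while MF(ALPHA)2 and SAG1 are lower in the 37 °C culture.

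Of 17 phospholipid genes, PSD1, a phosphatidylserine decarboxylase (-1.22 and -1.04), the inositol transporter ITR1 (-1.31 and -0.90), the phospholipid methyltransferase OPI3 and the phosphatidylserine synthase CHO1 (-0.83 and -0.84) were called lower. OPI3 stood at 0.15 at 15 min and CHO1 at -0.05, and the differences between 60 and 15 min were -1.14 and -0.78 (limma adjusted p = 1.0e-09 and 1.5e-08). FIT2 and FIT3 took the same course, from 0.35 and -0.12 at 15 min, as did CIT2, the peroxisomal citrate synthase, from -0.11 at 15 min to -1.03 at 60 min. With the curve through control spots the differences of OPI3, CHO1, FIT3 and CIT2 from 15 min were not called (-0.45, -0.31, -0.58 and -0.61). Other lowered genes were the branched-chain transaminase BAT1 (-1.07 and -1.08), the histidine gene HIS4 (-1.20 and -1.31), SFG1, a putative regulator of pseudohyphal growth (-1.82 and -1.69), the drug transporter QDR2 (-1.55 and -1.25) and YOL014W, an uncharacterised open reading frame (-1.50 and -1.52).

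Transcripts for ribosome assembly factors, far below the reference at 15 min, were closer to it at 60 min. Of 59 genes of the small-subunit processome and 40S assembly 1 was called lower at 60 min, RRP12 (-0.83), which was not called with the curve through control spots (-0.55) or with 1 curve per array (-0.75). Of 68 genes of 60S assembly 2 were called lower, NOP7 (-0.84) and TIF6 (-0.78), of which TIF6 was not called without array a (-0.76), in the deposited ratios (-0.76) or with the curve through control spots (-0.60). Their list medians were -0.24 and -0.26 at 60 min and -0.91 and -0.99 at 15 min. Between 15 and 60 min, 31 of the 59 and 33 of the 68 were called higher and none lower, where 5.63% of all genes were called higher and 5.10% lower. With the curve through control spots these counts were 49 and 54. Among 21 genes for RNA polymerase I or III, 11 were called higher than at 15 min, or 6 after median centring only, and none was called against the reference (18 at an unadjusted p below 0.05 in limma), with a median of -0.24 that was 0.0073 with the curve through control spots. The 127 cytosolic ribosomal protein genes had a median of -0.22, which was -0.13 in the deposited ratios, -0.68 with the curve through control spots and -1.03 after median centring only, and 10 were called lower, from RPS21B (-1.14 and -0.94) and RPL14A (-1.09 and -0.95) to RPL1B (-1.21 and -0.35). That count rests on the intensity curve: it was 3 with 1 curve per array, 5 in the deposited ratios, 32 with the curve through control spots and 121 after median centring only. RPS21B stood at -0.20 and RPL14A at -0.32 with 1 curve per array, and neither was then called.

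Other transcripts that had moved strongly at 15 min had also come back to or towards the reference, with KAP123 and HO still below it. RNR1, the large subunit of ribonucleotide reductase, measured -2.69 and -2.54 at 15 min and 0.19 on both arrays at 60 min, the largest rise between these times (2.80 ± 0.13 SE, limma adjusted p = 6.2e-11). OLE1, the fatty acid desaturase, went from -2.32 and -2.13 to -0.06 and -0.08, and the importin KAP123 from -2.73 and -2.69 to -0.59 and -0.48. The ribosomal protein genes RPS27B and RPL20B rose by 2.21 and 2.09 between 15 and 60 min, to 0.09 and -0.02, but by only 0.58 and 0.56 with 1 curve per array, where neither was called. The G1 cyclin CLN2 stood at -1.26 at 15 min and -0.02 at 60 min, and the endonuclease gene HO, transcribed at the end of G1, at -2.53 and -0.45. CLN1, CLN3, SWI4 and SIC1 lay between -0.07 and 0.10 at 60 min. Some mitotic genes were lower. CDC20, which activates the anaphase-promoting complex, stood at -1.04, the chitin synthase CHS2 -0.85 and -0.87, and HOF1, of cytokinesis, -0.79 and -0.78, the 3 called of 25 genes of the CLB2 cluster, whose median was -0.34, while the cyclin CLB2 stood at -0.65 and was not called. With the curve through control spots none of the 3 was called (-0.74, -0.75 and -0.51), the median of all genes then being 0.2005, and HOF1 was not called after median centring only (-0.72).

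Downward from 15 min went the stress genes. ALD3 measured 4.94 and 5.10 at 15 min and 1.95 and 1.34 at 60 min (difference -3.37 ± 0.13 SE, limma adjusted p = 1.5e-11). RGI1, a gene of energy metabolism, went from 3.57 and 3.44 to 0.29 and 0.25, a return to near the reference, and the differences of STF2, HXK1, RTN2, TFS1, CYC7 and CTT1 were -2.56, -2.55, -2.51, -2.49, -2.36 and -2.33. STF2 and CYC7, an ATPase-stabilising factor and an isoform of cytochrome c, were still at 1.88 and 1.25 at 60 min. Of the 35 general stress genes 31 were called lower than at 15 min and none higher. Both small heat shock proteins and both disaggregases were called lower too, with median differences of -1.09 and -1.15. So were 3 of 10 Hsp70 and Hsp110 genes and 2 of 11 Hsp90 genes, where 5.10% of all genes were called lower. In the endoplasmic reticulum list 2 of 15 were called higher and none lower. With the curve through control spots HSP26, HSP42 and HSP78 were not called lower (-0.39, -0.75 and -0.49), nor were SSA1, SSE2, STI1 and HSC82. Over all genes 271 were called lower and 299 higher, a share of 52.5% higher that was 38.9% after median centring only (198 of the calls) and 86.3% with the curve through control spots, which raised the median of all genes by 0.28 in this comparison (0.2769). HSP12 stood at 4.15 at 15 min and 4.14 at 60 min, a difference of -0.01 with a 95% interval from -0.30 to 0.28, and it had been at 5.18 at 30 min. AHA1, HCH1, HSP60 and KAR2 differed from 15 min by -0.37, -0.15, -0.60 and -0.53, with limma adjusted p values from 4.4e-07 to 0.017 but within 1.7-fold. For HSP10 and HSP82 no difference was resolved, with 95% intervals from -0.75 to 0.07 and from -0.69 to 0.51. The 198 genes called higher at 60 min had a median of 1.14 there, after 1.36, 2.00, 1.85 and 1.27 at the 4 earlier times in order. For the 75 genes called lower it was -1.02, after -0.53, -1.09, -1.28 and -1.05. These medians share the 60 min arrays by which the genes were chosen and are given as a description.

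**Figure D4:**
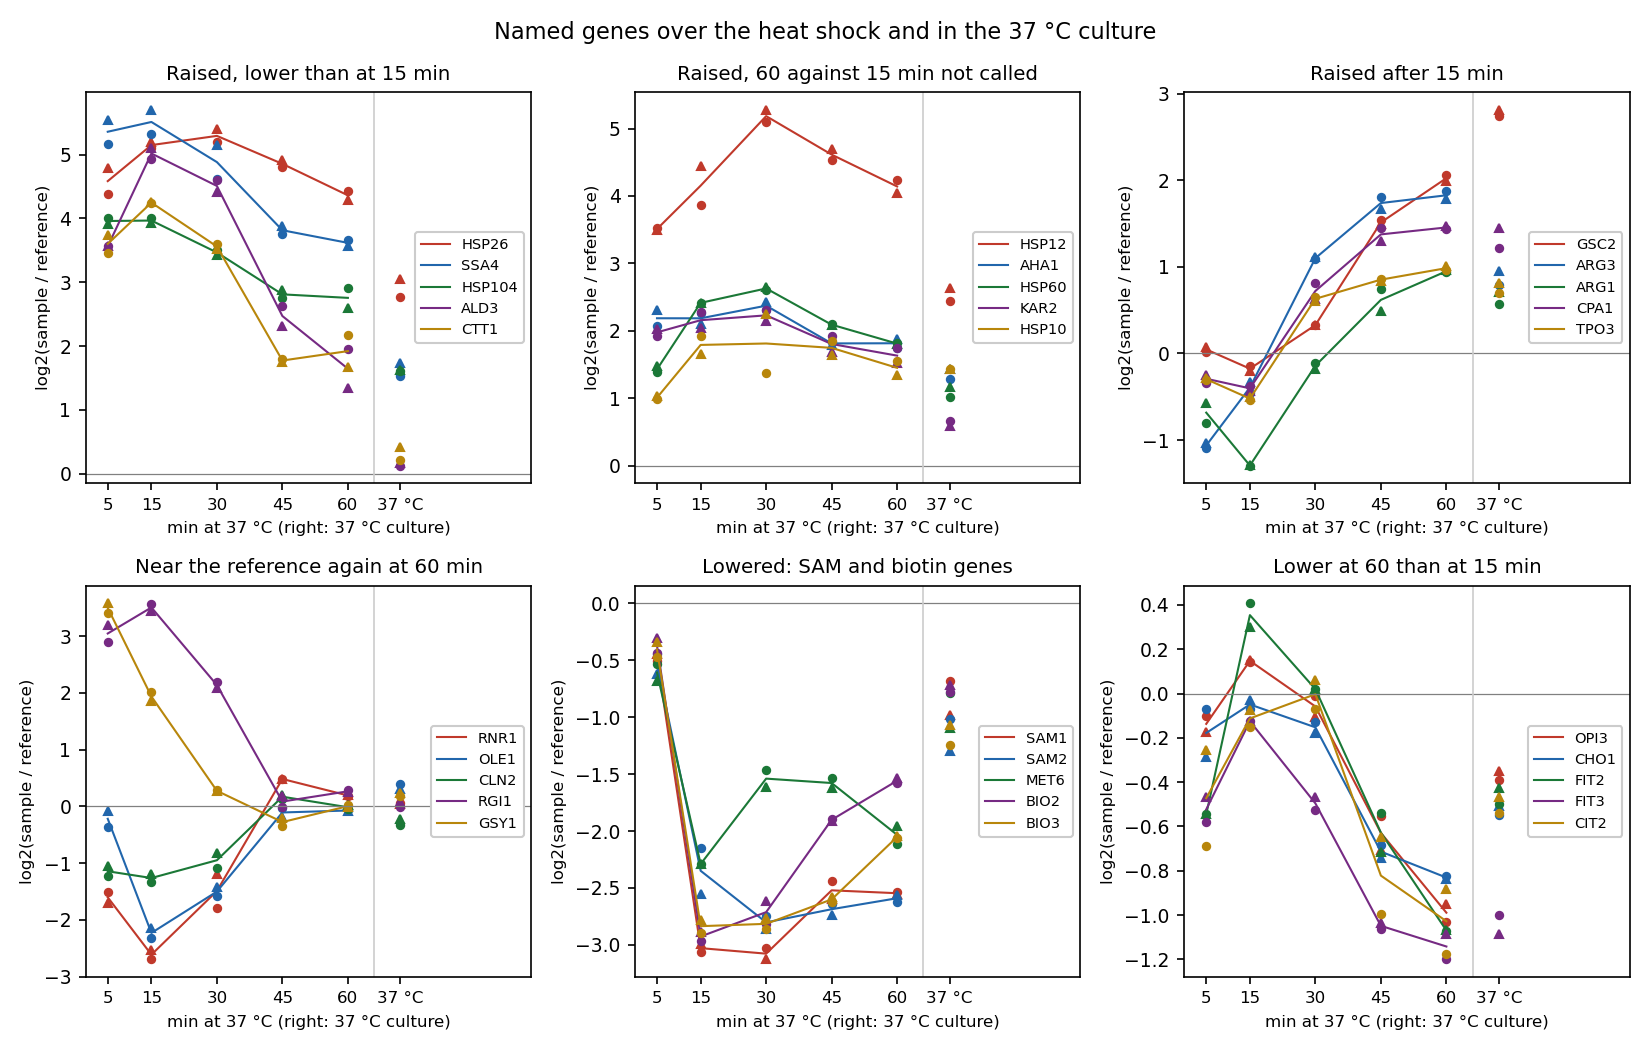
Log2 ratio over the common reference (y axis) against minutes at 37 °C (x axis), with the 37 °C culture at the right of each panel, for 30 genes in 6 panels, where circles are array a, triangles array b and lines join the fitted values. HSP12 is as high at 60 as at 15 min, GSC2 and ARG3 rise after 15 min, RNR1 and RGI1 are close to 0 at 60 min from opposite sides, and SAM1 and SAM2 are near -2.6 at 60 min.

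Between 45 and 60 min few genes were called, while histone genes moved together at sizes mostly within the fold limit. By limma's test 1 gene was called higher and 4 lower, 0.0188% and 0.0753% of the 5315 and 0.0941% in either direction, while adjusted p alone, with no fold limit, passed 174 higher and 184 lower. HHF1, a gene for histone H4, rose from -1.01 and -0.46 to 0.06 and 0.13 (difference 0.83, limma adjusted p = 1.3e-04). MF(ALPHA)1 went from -0.42 and -0.22 to -1.30 and -1.33, ALD3 from 2.62 and 2.32 to 1.95 and 1.34, and the one-carbon and purine genes SHM2 and ADE17 from 1.18 and 0.97, and 1.04 and 0.90, to 0.23 and 0.28, and 0.13 and 0.17. With the curve through control spots none of the 5 was called. MF(ALPHA)1 and SHM2 were not called with 1 curve per array, these and HHF1 were not called after median centring only, HHF1 and SHM2 were not called without array a (0.76 and -0.76), and ALD3 was not called without array b (-0.53). All 10 histone genes were higher at 60 than at 45 min, each with an unadjusted p below 0.05 in limma. Their differences ran from 0.30 to 0.83 with a median of 0.62, against -0.0037 for all genes, and the list's median went from -0.47 at 45 min to 0.12 at 60 min. The median difference was 0.69 with 1 curve per array, 0.64 after median centring only and 0.82 with the curve through control spots, and in the last pair of settings 9 of the 10 had an unadjusted p below 0.05. The 2 gene copies of each core histone are nearly identical, so their probes may read both. HHF1 was the only one called against 45 min, and none was called against the reference (7 at an unadjusted p below 0.05 in limma), with a median that was -0.30 after median centring only.

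The 37 °C culture shows how far the state at 60 min still was from that of cells grown at this temperature. Both were measured against the same reference, so their values stand side by side here and no likeness of the 2 profiles is computed. The direct comparison called 73 genes higher and 18 lower at 60 min than in the 37 °C culture, 1.37% and 0.339% of the 5315, so that 80.2% of the calls were higher. That share was 55.7% after median centring only (54 higher and 43 lower) and 96.6% with the curve through control spots (168 and 6), where the median of all genes was 0.249. Without array a of 60 min these counts were 55 and 20, and without array b 85 and 27. Of the 35 general stress genes 19 were called higher at 60 min and none lower. The 5 largest excesses were RTC3 (2.77 against 0.49), SSA4 (3.62 against 1.63), HSP31, a chaperone-like protein (1.58 against -0.11), CTT1 (1.92 against 0.31) and HSP12 (4.14 against 2.54), all with adjusted p values of limma of 4.8e-07 or below. HSP26 was at 2.91 in the 37 °C culture and 1.45 higher at 60 min. For some raised genes no difference was resolved. ALD4 stood at 2.22 in the 37 °C culture, with a difference of 0.08 and a 95% interval from -0.14 to 0.30, SED1 at 1.77 (0.02, from -0.20 to 0.25), GPH1 at 1.84 (0.15, from -0.05 to 0.35) and YRO2 at 2.18 (-0.10, from -0.32 to 0.13). GSC2 was higher in the 37 °C culture, at 2.74 and 2.81, than at 60 min, a difference of -0.75 just within the fold limit (limma adjusted p = 6.2e-08).

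Among lowered genes the order was mixed. SAM1 (-0.83 in the 37 °C culture) and SAM2 (-1.15) were lower at 60 min, with differences of -1.72 and -1.44 against this culture. The differences of MET6, SFG1, BIO3 and BIO2 were -1.09, -1.17, -0.89 and -0.81, the last 3 of them not called with the curve through control spots (-0.76, -0.45 and -0.53). INO1, of inositol synthesis, stood at -0.64 at 60 min and 0.82 in the 37 °C culture, and the acid phosphatase gene PHO3 at 0.13 and 1.27. None of the 28 iron genes was called between the 2 in limma (12 at an unadjusted p below 0.05), where 1.71% of all genes were called. SIT1, ARN2, TIS11, FIT3 and FRE1 stood at -1.14, -1.20, -0.96, -1.04 and -0.88 in the 37 °C culture. ENB1, FIT2 and FET3 were lower at 60 min than in that culture, by differences of -0.70, -0.61 and -0.59 that lay within the fold limit. The alpha-specific genes ran the other way: MF(ALPHA)2 stood at -4.94, SAG1 at -3.08 and STE3 at -2.29 in the 37 °C culture, and each was called higher at 60 min, by 1.23, 1.34 and 0.87. STE3 was not called in this comparison after median centring only (0.59). HIS4, MDH2 and PHO84 were likewise lower in the 37 °C culture (-1.94, -1.63 and -1.67) than at 60 min (-1.25, -0.85 and -0.82). The difference of HIS4 (0.69) lay within the fold limit. That of MDH2 (0.78) was not called with 1 curve per array (0.76), in the deposited ratios (0.76) or after median centring only (0.58). Cells at 60 min had been spun down and given new medium, the sources do not state this for the 37 °C culture at 0 min, and the part of that handling in these differences was not tested.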

How the data were processed

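Scanner intensity per channel and spot, deposited by the authors without normalisation, came from spotted oligonucleotide arrays with 15552 spots in 48 print blocks, 2 spots per probe. The authors also deposited normalised log2 ratios, used as an alternative, and the submitters' processing notes name limma 2.12.0. Here, R 4.3.3 and limma 3.58.1 fitted a loess curve (span 0.4) per print block to log2 ratios without background subtraction, giving control spots and spots above 32768 no weight. Ratios were turned to sample over reference, duplicate spots averaged and all 22 arrays fitted with 1 coefficient per condition and a term for the array letter (dye orientation), with moderated tests on 6388 gene probes. Benjamini-Hochberg adjustment covered 5326 named probes (5315 genes, the brightest probe for the 11 with several). Genes were called at adjusted p below 0.05 and above 1.7-fold. Above background meant 2.6 background SDs. No depth exists for arrays, and their number limits precision. Gene names came from the platform annotation, with 54 updated and 5309 matched to RefSeq (R64). The text names the 15 largest rises and falls against the reference, 8 and 8 against 15 min and 5 and 5 against the 37 °C culture. Against 45 min it names the 1 rise and 4 falls that were called. It also names the 2 highest and lowest called genes of each list, members of lists of up to 25 genes, and a fixed set of regulators. Other genes, among them the remaining called iron and cell wall genes, TPO3, CIT2 and QDR2, were chosen after their values were seen. Members and lists were chosen with earlier results of these data known. The fits were tested on simulated data. Alternatives were global loess, median centring, a loess through external controls, the deposited ratios, normexp (offset 50), no array-letter term, fewer arrays and other thresholds. Promoter motifs were not analysed here.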

Additional observations from a re-analysis of the deposited data

Results flagged for a closer look

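The state at 60 min differed from that at 15 min by limma's test of the difference itself for 8 named rises and 8 named falls, the largest of each kind, over 2 arrays a time point. The rises were 2.80 for RNR1, 2.24 for ARG1, 2.22 for ARG3, 2.21 for RPS27B, 2.20 for GSC2, 2.17 for KAP123, 2.16 for OLE1 and 2.09 for RPL20B on the log2 scale. RPS27B and RPL20B kept neither their size nor their call with 1 intensity curve per array (0.58 and 0.56) or after median centring only (0.53 and 0.50). The falls were -3.37 for ALD3, -3.24 for RGI1, -2.56 for STF2, -2.55 for HXK1, -2.51 for RTN2, -2.49 for TFS1, -2.36 for CYC7 and -2.33 for CTT1. Between 45 and 60 min the same test called 5 genes, with differences of 0.83 for HHF1, -0.995 for MF(ALPHA)1, -0.83 for ALD3, -0.82 for SHM2 and -0.81 for ADE17.

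The comparisons above left out 1062 gene probes that carry no gene symbol in the annotation used here. For these the limits of adjusted p and fold were the same, but the adjustment covered all 6388 gene probes. Of the 1062 probes 71 were higher and 6 lower at 60 min than in the reference. Of the named genes 3.73% were called higher and 1.41% lower.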

How the results depend on the processing

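The counts of 198 higher and 75 lower genes against the reference kept their size with 1 curve per array, normexp background correction, the deposited ratios and the 10 heat shock arrays alone, and 252, 261, 262 and 273 of the 273 genes respectively were called in both. Without the replicate block, the term for the array letter by which arrays are paired, they stayed at 198 and 75, and no call of a named gene changed. Differences between array a and b correlated between conditions with a median of 0.355 and a lowest value of -0.127, with 51 of 55 pairs above 0.1. Leaving out array a or b gave 181 to 214 higher and 78 to 86 lower genes against the reference, 299 to 302 and 251 to 276 against 15 min, 0 to 1 and 3 to 5 against 45 min, and 55 to 85 and 20 to 27 against the 37 °C culture. Without array a ALD2, ILV5, IRA2, PST1, RPL1B, RPL8B, SNZ3, TDH3 and TIF6 lost their call against the reference, BIO3, CHO1 and HSP150 against 15 min, HHF1 and SHM2 against 45 min, and ERO1, MDH2, NQM1, SSA1, STF2, STI1, TDH3 and TFS1 against the 37 °C culture. Without array b HOF1 and WTM1 did against the reference, ATH1, HSP26, NTH1, RPL8B and SSA1 against 15 min, and ALD3 against 45 min.

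Median centring only gave 258 lower genes against the reference, 198 higher against 15 min, 0 higher and 2 lower against 45 min and 43 lower against the 37 °C culture, and turned TDH1 to -0.31, TDH3 to -0.29 and CWP2 to -0.082 against the reference. The difference of SED1 between 60 and 15 min turned to -0.59 in that setting, to -0.61 with 1 curve per array and to -0.045 with the curve through control spots, which also turned that of SSA1 to 0.0034. The curve through external control spots gave 322 higher against the reference, 757 higher and 120 lower against 15 min, 0 and 0 against 45 min and 168 and 6 against the 37 °C culture. With 1 curve per array 2 and 2 genes were called against 45 min. A limit of 2-fold left 125 and 39 against the reference, 147 and 154 against 15 min, 0 and 0 against 45 min and 37 and 7 against the 37 °C culture. Adjusted p alone passed 1971 and 1798, 1842 and 1818, 174 and 184, and 1230 and 1153, in the same order. With the 37 °C culture in place of the reference the counts were 73 and 18, and 19 genes called against the reference and given with values changed sign: ARN2 (0.18), ARO10 (-0.13), BAT1 (0.0103), GPX2 (0.44), GSC2 (-0.75), HIS4 (0.69), HSP150 (-0.091), MDH2 (0.78), MF(ALPHA)1 (0.53), MF(ALPHA)2 (1.23), PDR5 (0.0106), PHO84 (0.85), PST1 (-0.038), RNR2 (-0.26), SAG1 (1.34), STE3 (0.87), URA1 (0.42), WTM1 (-0.19) and YRO2 (-0.096). The causes were not tested. Precision is limited by 2 arrays a condition.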
